A study of Mus musculus with 9 samples.

Results

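Messenger RNA of the 4 myogenic regulatory factors (Myod1, Myf5, Myog and Myf6) and the 4 MEF2 family members (Mef2a, Mef2b, Mef2c and Mef2d) was followed through the differentiation of mouse C2C12 cells, a long-established myoblast line. The genes were taken by symbol, which gave 8 of the 47729 genes in the count table. Of these, 6 passed the filter on low counts (at least 1 CPM, a read count scaled to library size, in 3 or more of the 9 libraries), and Myf6 and Mef2b did not. The lowest value among the 6 was 2.91 CPM (Myog in Per2KO on day 0), so none of them passed through the high libraries alone.

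All groups were C2C12 cells that had received a guide RNA for CRISPR-Cas9. WT was the control with a non-target guide, Per1KO had a knockout of Per1 and Per2KO a knockout of Per2, both genes of the circadian clock's repressor arm. Cells were grown in fetal bovine serum and sampled before differentiation (day 0) and after 3 and 5 days in horse serum, with 1 library for each of the 9 combinations of genotype and day. Whether a knockout population was 1 clone or a pool is not given in the sources used here. By its title the study concerned how the circadian phase bears on the differentiation of myoblasts.

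The myogenic regulatory factors are basic helix-loop-helix proteins that pair with E proteins and bind E-boxes in the promoters and enhancers of muscle genes. Myod1 and Myf5 mark committed myoblasts, Myog (myogenin) is switched on when myoblasts leave the cell cycle and is needed for fusion into myotubes, and Myf6 (MRF4) belongs largely to later stages of fibre maturation. MEF2 proteins are MADS-box factors that bind A- and T-rich sites, cooperate with the myogenic factors on the same genes and take part in keeping Myog active.

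WT libraries held 5020385 to 6773320 counts and knockout libraries 41997763 to 48051824, on average 7.82 times as many. Only the WT titles carry a lane suffix. Genotype, depth and any difference in sequencing run cannot be told apart in a comparison with WT. Intervals on single libraries below are exact 95% Poisson intervals, which cover counting error only. The mRNA of the targeted genes was 35.5, 33.7 and 30.9 CPM for Per1 in WT on days 0, 3 and 5, and 20.8, 32.4 and 28.9 CPM in Per1KO. Per2 was at 9.73, 11.5 and 20.4 CPM in WT and 3.50, 9.12 and 8.37 CPM in Per2KO, a fall of 1.02 ± 0.24 on the log2 scale (edgeR adjusted p = 0.0230), while Per1 did not pass the test in Per1KO (adjusted p = 0.310). Per1 was also at 16.4 CPM in Per2KO on day 0, so the mRNA of the target does not separate the knockouts, and genotypes are given as labelled. The tissue label reads whole muscle, but none of the 4 endothelial, 4 leukocyte or 4 adipocyte markers reached 1 CPM in any library, whereas all 5 myoblast markers did. Of the fibroblast markers, Dpt and Pdgfra were called lower in both knockouts (Dpt by -4.61 and -3.92, Pdgfra by -1.24 and -1.27 in log2), and the summed level of the 4 markers spanned 75.7 to 779 CPM in WT, 14.2 to 741 in Per1KO and 21.7 to 829 in Per2KO. Among osteoblast markers, Dmp1 was at 1.54 to 4.74 CPM in WT and at most 0.848 CPM in the knockouts. Dcn and Dpt also rose with differentiation (by 5.25 and 4.39 to day 5), and Dcn responded more in the knockouts (2.76, adjusted p = 0.0119) and Dpt less (-2.80, adjusted p = 0.0398). The part of these markers in the differences below, between genotypes or between days, was not tested.

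The genes lie apart in the genome except for Myf5 and Myf6. On build GRCm38, Myod1 (ENSMUSG00000009471) is at chr7:46376474-46379099 on the plus strand, Myog (ENSMUSG00000026459) at chr1:134289989-134292548 on the plus strand, and Myf5 (ENSMUSG00000000435, chr10:107482908-107486134) and Myf6 (ENSMUSG00000035923, chr10:107492853-107494737) are neighbours on the minus strand. Mef2a (ENSMUSG00000030557, chr7:67231163-67372858, minus), Mef2b (ENSMUSG00000079033, chr8:70139711-70167488, plus), Mef2c (ENSMUSG00000005583, chr13:83504034-83667080, plus) and Mef2d (ENSMUSG00000001419, chr3:88142372-88172086, plus) are protein-coding like the rest. Sequence sharing with other genes was low. Of the 31-base words of the longest coding transcripts, at most 0.0762% (Mef2b with Mef2c) occurred in another gene. Mef2a overlaps Gm44667 and Gm44668 on its own strand and Lysmd4 on the opposite strand. Mef2d overlaps the antisense gene 1700113A16Rik, and Mef2b overlaps Borcs8 on its own strand. How the authors' counting treated strand and shared stretches is not given in the sources used here.

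Promoter sequence is shown for 3 members because they differ in the sites that this family itself reads and moved in different ways below. RefSeq (GRCm38.p6) had windows from 250 bases before to 50 bases after a start for 6 of the 8 members. The windows are written 5′ to 3′ along the gene's strand, with capitals marking E-boxes (CANNTG) and the MEF2 core (CTA, then 4 bases each A or T, then TA), both searched on both strands. Myog is at chr1:134289754-134290053 (plus), Mef2a at chr7:67372809-67373108 (minus) and Myf5 at chr10:107486085-107486384 (minus).
Myog: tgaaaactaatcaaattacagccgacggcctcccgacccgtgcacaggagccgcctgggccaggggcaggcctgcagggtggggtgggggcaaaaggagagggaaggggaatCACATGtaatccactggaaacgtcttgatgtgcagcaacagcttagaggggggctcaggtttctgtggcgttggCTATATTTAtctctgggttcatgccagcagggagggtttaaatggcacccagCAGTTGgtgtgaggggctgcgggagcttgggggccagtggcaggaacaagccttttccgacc
Mef2a: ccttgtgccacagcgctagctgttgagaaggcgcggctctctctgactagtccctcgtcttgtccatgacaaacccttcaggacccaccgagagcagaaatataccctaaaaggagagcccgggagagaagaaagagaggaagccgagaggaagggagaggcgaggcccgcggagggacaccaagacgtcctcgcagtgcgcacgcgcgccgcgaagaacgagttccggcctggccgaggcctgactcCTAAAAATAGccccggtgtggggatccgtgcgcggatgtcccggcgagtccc
Myf5: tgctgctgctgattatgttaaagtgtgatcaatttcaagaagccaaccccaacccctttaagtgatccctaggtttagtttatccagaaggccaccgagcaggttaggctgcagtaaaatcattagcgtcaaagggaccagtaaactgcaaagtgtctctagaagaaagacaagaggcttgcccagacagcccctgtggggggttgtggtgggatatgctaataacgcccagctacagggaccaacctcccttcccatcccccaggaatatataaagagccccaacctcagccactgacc

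The Myog window holds both kinds of motif, with E-boxes beginning 138 and 12 bases before the start and the MEF2 core CTATATTTA beginning 64 bases before it. The Mef2a window holds overlapping MEF2 cores (CTAAAAATA and TAAAAATAG) 2 and 1 bases before the start and no E-box, and the Myf5 window holds neither motif. The Mef2d window also held neither, while E-boxes without a MEF2 core were found for Mef2c, in 2 of its 3 windows, and for Mef2b. Among all 32851 windows of this length, 72.3% held an E-box and 3.6% a MEF2 core. A match is a run of letters, not a measured binding site.

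Myog showed the largest difference between the genotypes of any member. In WT its level was 124 CPM on day 0, 866 on day 3 and 1058 on day 5. In Per1KO it was 5.35, 261 and 351 CPM, and in Per2KO 2.91, 226 and 270 CPM. All 3 WT libraries exceeded the knockout libraries of the same day, and the day 0 WT level lay above both day 0 knockout levels and below every later one. On day 0 the ratio to WT was 0.0432 (0.0375 to 0.0497) in Per1KO and 0.0235 (0.0196 to 0.0280) in Per2KO, or 23.1-fold and 42.5-fold lower. The gap was smaller later, at 3.32-fold and 3.84-fold (day 3) and 3.02-fold and 3.91-fold (day 5). Myog therefore rose 8.56-fold from day 0 to day 5 in WT, from a level that was already over 100 CPM, against 65.6-fold in Per1KO and 92.9-fold in Per2KO. Most of the rise was present by day 3 (7.0-fold, 48.9-fold and 77.6-fold). In bulk RNA, fewer cells that express a gene and less RNA per cell cannot be told apart.

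**Figure D1:**
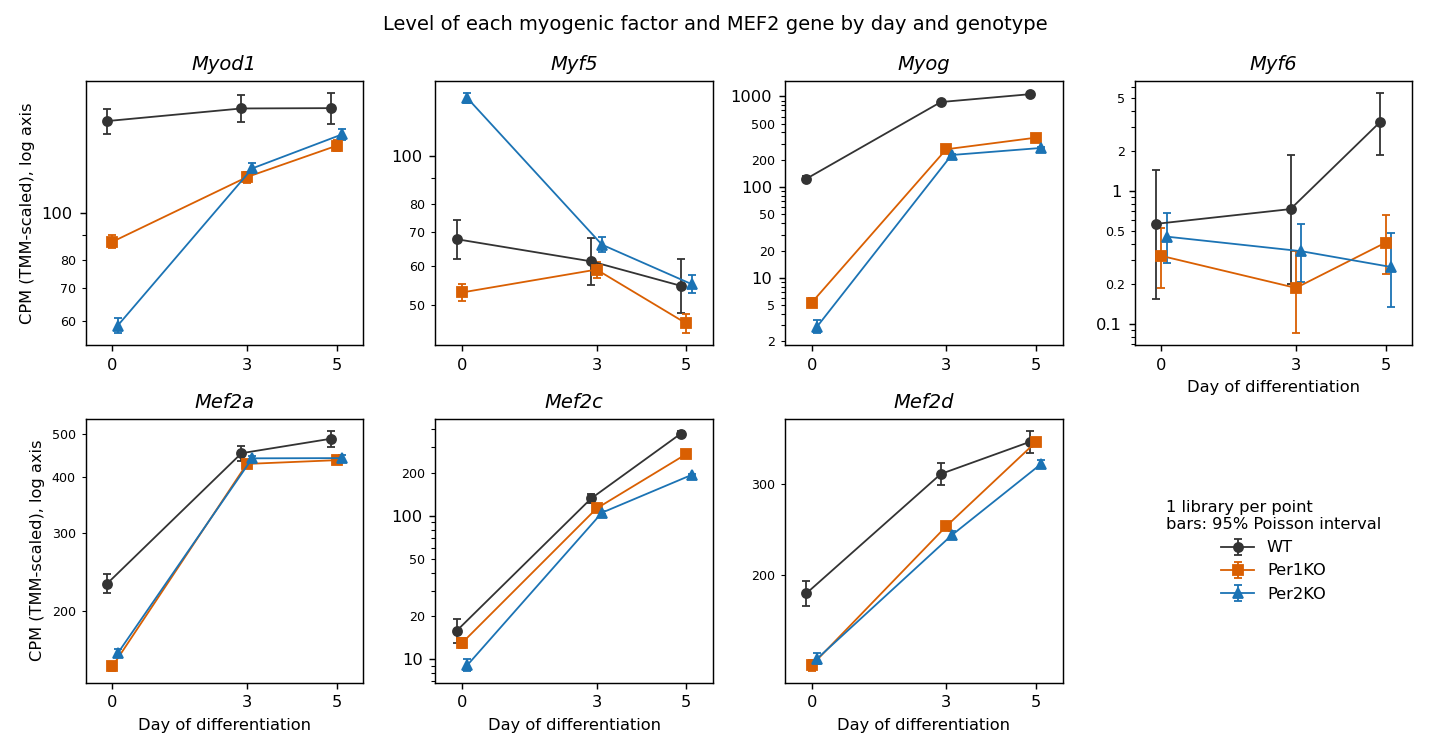
TMM-scaled CPM (log axis) of 7 members against day of differentiation (0, 3 and 5), with 1 library per point and bars for the exact 95% Poisson interval; Mef2b, with 0 counts in every library, is not drawn. Myog in WT lies above both knockouts on every day, Myf5 in Per2KO stands apart on day 0 at 130.5 CPM, and the genotypes' Mef2a and Mef2d levels lie close together on day 5.

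Fitted over all 9 libraries with genotype and day as terms, Myog was lower in Per1KO by -2.80 ± 0.72 and in Per2KO by -3.18 ± 0.73 (log2 fold change with SE, edgeR quasi-likelihood test, adjusted p = 0.0326 and 0.0218). The days stand in here for replicates of a genotype, so these p-values describe 3 populations and say nothing of independently derived knockouts. Over the genotypes together, Myog rose by 4.65 ± 0.77 to day 3 and by 4.99 ± 0.78 to day 5 (adjusted p = 0.00367 and 0.00178), and both calls were lost without Per1KO (0.115 and 0.0688). A separate model compared the response of the knockouts, days 3 and 5 against day 0, with that of WT. Myog responded more in the knockouts by 3.14 ± 0.25 in log2 (adjusted p = 0.00359). The genotype calls for Myog were lost with day 3 left out (adjusted p = 0.110 in Per1KO and 0.0957 in Per2KO), with day 5 left out (0.0961 and 0.0737), with only the 6 libraries compared (0.0769 and 0.135) and with every gene of at least 1 count tested (0.193 and 0.152), with the direction kept in each. The difference in response stayed past the threshold in every alternative in which it was fitted. It was not fitted without day 0 or without WT. Its dependence on the single WT library of day 0 was therefore not tested.

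Myod1, the myoblast determination factor, was nearly level in WT, at 155, 164 and 164 CPM on days 0, 3 and 5. It was at 87.2, 118 and 137 CPM in Per1KO and at 58.6, 123 and 145 CPM in Per2KO. The WT library was the highest on each day, and both knockouts approached it from a lower start. On day 0 Myod1 was 1.77-fold lower than WT in Per1KO and 2.64-fold lower in Per2KO. By day 5 those gaps were 1.2-fold and 1.13-fold. The ratio of day 5 to day 0 was 1.58 in Per1KO and 2.47 in Per2KO. In WT it was 1.06 (0.968 to 1.17), and its log2 turned from 0.09 to -0.12 when library totals replaced the TMM factors. In the fit, Myod1 rose by 0.67 ± 0.21 from day 0 to day 5 (edgeR adjusted p = 0.0341), a call lost without Per1KO (0.193) or without Per2KO (0.252). Neither knockout passed the threshold against WT (-0.54 ± 0.21, adjusted p = 0.115, and -0.66 ± 0.21, adjusted p = 0.0677), nor did the difference in response (0.77 ± 0.27, adjusted p = 0.141). DESeq2's Wald test called Myod1 lower in Per2KO (adjusted p = 0.0252).

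Myf5, the other early factor, was at 67.8, 61.2 and 54.6 CPM in WT and at 53.0, 58.9 and 45.9 CPM in Per1KO. In Per2KO it began at 130.5 CPM and stood at 66.1 and 55.1 CPM on the later days. The day 0 library of Per2KO was the highest of the 9, at 1.92 times WT (1.75 to 2.11) and 2.46 times Per1KO (2.35 to 2.58). The other 8 libraries lay between 45.9 and 67.8 CPM. Myf5 did not pass the test in any of the 7 comparisons. Its difference was -0.62 ± 0.23 from day 0 to day 5 (edgeR adjusted p = 0.0537), which did pass with DESeq2 (0.0290), with every gene of at least 1 count tested (0.0455) and without WT (0.0414). It was 0.39 ± 0.23 in Per2KO against WT (adjusted p = 0.264) and -0.59 ± 0.22 in Per1KO against Per2KO, where the unadjusted p was 0.0289 and the adjusted p 1.00.

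The balance of the early factors was read as the share of Myf5 among the reads of Myf5 and Myod1 together, which needs no scaling between libraries but does depend on the length of each transcript. This share was 30.5%, 27.2% and 24.9% in WT on days 0, 3 and 5, and 37.8%, 33.2% and 25% in Per1KO. In Per2KO it was 69.0% on day 0 (exact Clopper-Pearson 95% interval 68.1 to 69.9), 34.9% on day 3 and 27.5% on day 5. Per2KO on day 0 was the only library in which Myf5 reads outnumbered Myod1 reads. On day 5 the shares of the 3 genotypes lay within 24.9% to 27.5%. The ratio of Myog to Myod1 reads was 0.800 in WT on day 0 but 0.0613 in Per1KO and 0.0496 in Per2KO, and on day 5 it was 6.44, 2.55 and 1.86. Thus the deficit of Myog on day 0 in the knockouts exceeded that of Myod1 within the same libraries.

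**Figure D2:**
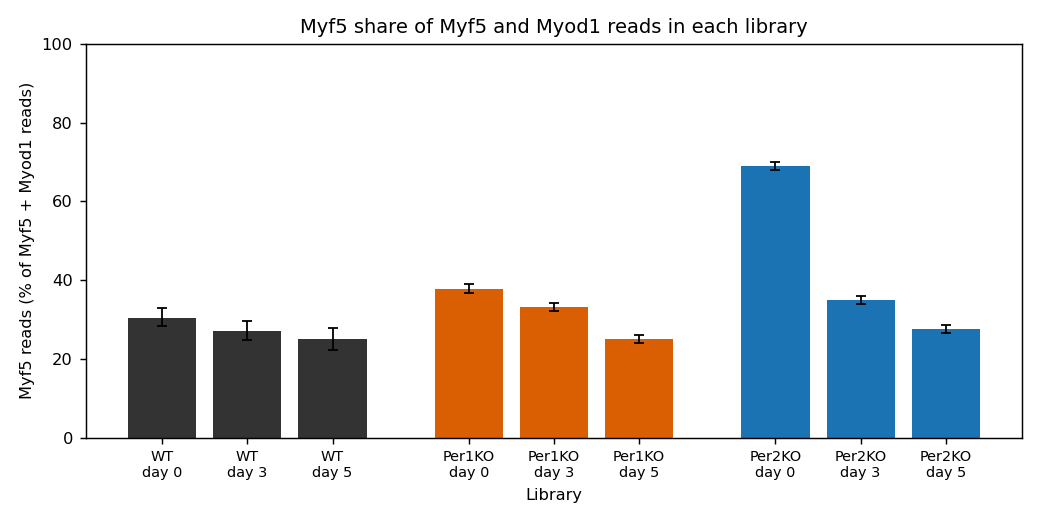
Myf5 reads as a percent of Myf5 and Myod1 reads together, with 1 bar for each of the 9 libraries, grouped by genotype and day, and exact 95% binomial intervals as error bars. Per2KO on day 0 is at 69.0%, and the other 8 libraries lie between 24.9% and 37.8%.

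Myf6, which is otherwise a gene of maturing fibres, was close to the limit of detection. It was at 0.564, 0.728 and 3.29 CPM in WT, at 0.324, 0.186 and 0.408 CPM in Per1KO and at 0.452, 0.351 and 0.268 CPM in Per2KO. Only WT on day 5 passed 1 CPM, and it did so on 15 counts (interval 1.84 to 5.43 CPM). That interval lies above those of both knockouts on the same day (upper bounds 0.653 and 0.479 CPM), and the ratios were 8.07 and 12.3. Myf6 was not tested, and the 4 and 4 counts in the other WT libraries set no order among days 0 and 3.

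Mef2c, the MEF2 gene most tied to muscle differentiation, rose in every genotype at every step. Its level was 15.8, 132 and 374 CPM in WT on days 0, 3 and 5. It was 13.0, 113 and 269 CPM in Per1KO and 9.12, 105 and 193 CPM in Per2KO. The order WT, Per1KO, Per2KO held on each day, and the groups of different days did not overlap. The rise from day 0 to day 5 was nearly the same multiple in the 3 genotypes (23.7-fold, 20.7-fold and 21.1-fold), and the fitted difference in response was 0.03 ± 0.27 (edgeR adjusted p = 0.965), an interval wide enough to hold changes in either direction. Mef2c rose by 3.24 ± 0.15 to day 3 and by 4.45 ± 0.16 to day 5 (adjusted p = 3.59e-05 and 7.29e-06). Between days 3 and 5 it gained a further 1.21 ± 0.14 (adjusted p = 0.00742), which was lost without Per1KO (0.222) or without Per2KO (0.110). Per2KO was lower than WT by -0.69 ± 0.14 (adjusted p = 0.0134), lost with only 6 libraries (0.0656) and without day 5 (0.182), and Per1KO was at -0.34 ± 0.14 (adjusted p = 0.137).

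Mef2a and Mef2d, the widely expressed members, started high and rose less. Mef2a was at 231, 453 and 489 CPM in WT, at 150.5, 429 and 437 CPM in Per1KO and at 161, 442 and 442 CPM in Per2KO. On day 0 the knockouts stood below WT by 1.53-fold and 1.43-fold, whereas on days 3 and 5 all 6 knockout and WT values lay between 429 and 489 CPM. Mef2a rose by 1.31 ± 0.14 to day 3 and by 1.35 ± 0.14 to day 5 (edgeR adjusted p = 5.03e-04 and 2.10e-04), with little difference between days 3 and 5. Mef2d was at 185, 313 and 361 CPM in WT, at 134, 248 and 360 CPM in Per1KO and at 138, 239 and 327 CPM in Per2KO. Against day 0 it rose by 0.81 ± 0.12 on day 3 and 1.21 ± 0.12 on day 5 (adjusted p = 0.00221 and 1.91e-04). The step from day 3 to day 5 was 0.40 ± 0.12 and did not pass (adjusted p = 0.174), though it did with DESeq2 (0.0331) and without WT (0.0164). The day 3 call for Mef2d was lost without Per1KO (0.0677) or without Per2KO (0.0536). Neither gene passed the threshold in a knockout. For Mef2a the differences were -0.29 ± 0.14 and -0.24 ± 0.14 (adjusted p = 0.181 and 0.259), and for Mef2d -0.27 ± 0.12 and -0.32 ± 0.12 (adjusted p = 0.165 and 0.106).

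Mef2b had 0 counts in all 9 libraries. The exact intervals used for the other members reach up to 0.520 to 0.809 CPM for WT and 0.0725 to 0.0897 CPM for the knockouts at this count, and the limit of 3 counts is 0.423 to 0.658 and 0.0590 to 0.0730 CPM. Its overlapping neighbour Borcs8 was counted at 12.3 to 22.8 CPM, and reads in the shared stretch may have been left out or given to Borcs8, so the 0 is a statement about the count table. Whether Mef2b RNA was present could not be told from it.

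Read by comparison, 4 of the 6 tested members rose from day 0 to day 3 (Myog, Mef2c, Mef2a and Mef2d), where 18.1% of the 13324 tested genes were called higher, and 5 of 6 rose by day 5 (Myod1 in addition), where 23.2% were. None was called lower, with backgrounds of 16.9% and 22.9%. From day 3 to day 5, 1 of 6 rose (Mef2c, background 0.698%) and 0 fell (background 1.09%). Against WT, 1 of 6 was lower in Per1KO (Myog, background 10.1%) and 2 of 6 in Per2KO (Myog and Mef2c, background 10.6%), and 0 of 6 were higher in either (backgrounds 9.26% and 9.31%). A count of 1 or 2 of 6 is near those backgrounds. In the difference in response 1 of 6 was higher (Myog, background 3.5%) and 0 were lower (background 1.45%). Per1KO and Per2KO share their WT libraries in these comparisons. Compared with each other directly, 0 of 6 members and 0% of all genes passed in edgeR's test, with 2 of 6 members (Myf5 and Mef2c) and 88 of all tested genes at an unadjusted p under 0.05, and DESeq2 also called 0 of 6. The median log2 change of the 6 was 1.06 to day 3, 1.28 to day 5, -0.31 in Per1KO and -0.49 in Per2KO, while the medians of all tested genes lay between -0.02 and 0.01.

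**Figure D3:**
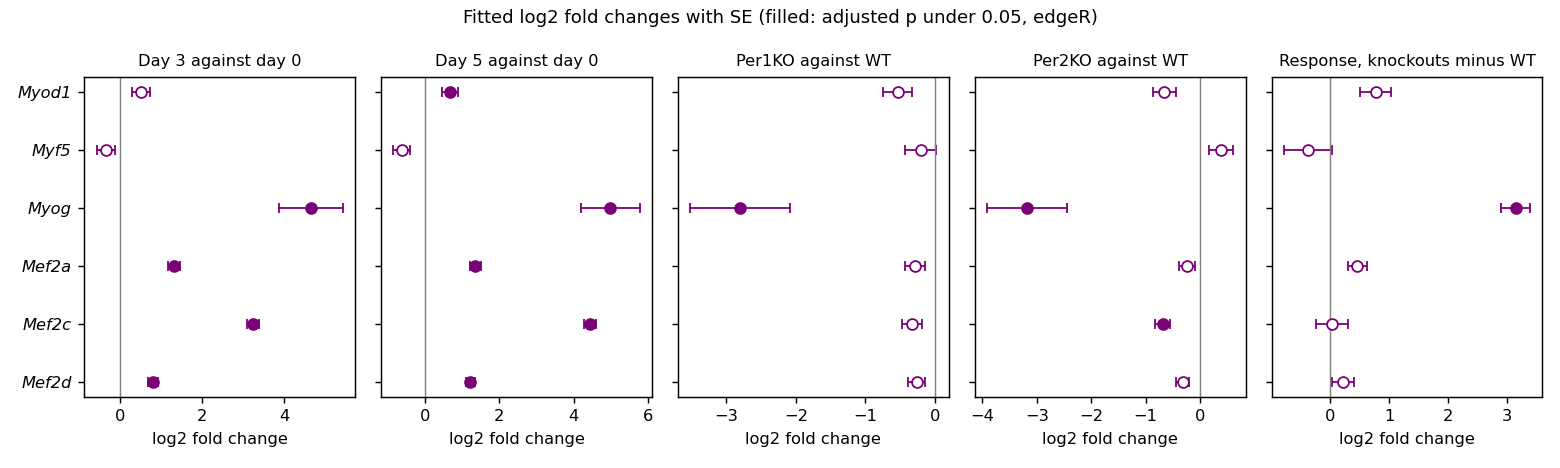
Log2 fold changes with SE of the 6 tested members in 5 comparisons, from the edgeR fits over all 9 libraries; filled points have an adjusted p under 0.05 and each panel has its own axis. Myog has the lowest values in both knockouts (-2.80 and -3.18) and the highest difference in response (3.14), and Mef2c is filled in both day comparisons.

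Between single libraries of the same day, counts of members past 2-fold had no replicate check. On day 0, 1 of 6 members with at least 1 CPM was 2-fold lower in Per1KO (Myog, background 8.65%) and 2 in Per2KO (Myog and Myod1, background 9.3%). On day 3 it was Myog alone in each knockout (backgrounds 9.26% and 10%). On day 5 it was Myog and Myf6 in each, 2 of the 7 members that reached 1 CPM (backgrounds 11.5% and 11.5%). Myf6 entered only through the WT library in which it was high, so it could be counted only as lower. No member was 2-fold higher than WT, where the backgrounds in Per1KO and Per2KO were 8.18% and 8.22% (day 0), 8.58% and 8.88% (day 3) and 9.15% and 9.26% (day 5). Between the knockouts, Myf5 on day 0 was the only member past 2-fold, lower in Per1KO (background 1.62%, and 0.737% higher). On days 3 and 5, 0 members were, where at most 0.116% and 0.322% of genes were lower and 0.108% and 0.238% higher in Per1KO.

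The order of the members was set on CPM per kilobase of the longest coding transcript, a scale of levels between genes. In WT on day 0, Myod1 (83.0) and Myog (82.7) were level within counting error, ahead of Mef2a (41.7), Mef2d (34.2) and Myf5 (32.6), with Mef2c at 2.52. In Per1KO on day 0 Myod1 led (46.9), followed by Mef2a (27.2), Myf5 (25.4) and Mef2d (24.9), and Myog stood at 3.58. Per2KO on day 0 was the only library led by Myf5 (62.6), with Myod1 at 31.5 and Myog at 1.95. From day 3 on Myog led in every genotype, at 579 and 708 in WT, 175 and 235 in Per1KO and 151 and 181 in Per2KO. Myog was thus behind 4 other members in both knockouts on day 0 and ahead of all of them on day 3. With the union of all annotated exons as the length, the leading gene was the same in each library, but Mef2a fell to rank 4 or 5, because its exon union is 14681 bases against 5538 for the transcript used.

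The E proteins are the dimer partners of the myogenic factors, and 1 of the 3 (Tcf3, Tcf4 and Tcf12) was called, lower in each of the comparisons that follow, where 22.9% (day 5 against day 0), 10.1% (Per1KO) and 10.6% (Per2KO) of all genes were. Tcf3, which encodes E12 and E47, was at 229, 148 and 118 CPM in WT, 185, 95.2 and 71.8 CPM in Per1KO and 169, 90.9 and 78.9 CPM in Per2KO. It fell as Myog rose, by 1.14 ± 0.12 on the log2 scale to day 5 (edgeR adjusted p = 2.13e-04), and it was lower in both knockouts (-0.55 ± 0.12 and -0.57 ± 0.12, adjusted p = 0.0162 and 0.0134). Those genotype calls were lost with only 6 libraries (adjusted p = 0.0844 and 0.0720), without day 3 (0.122 and 0.132) and without day 5 (0.202 and 0.133).

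Factors that restrain the myogenic factors or MEF2 moved in both directions. Of 19 listed, 16 were tested, and by day 5 3 were higher and 5 lower, near the 23.2% and 22.9% of all genes called so. The largest rise was in Bhlhe41, a repressor that is itself part of the clock (1.56 ± 0.25, edgeR adjusted p = 0.00191), and the largest fall in Msc, the bHLH repressor musculin (-2.25 ± 0.33, adjusted p = 0.00121). The other called genes, named after their values were seen, were Bhlhe40 and Zeb1, which rose, and Twist2 and the E protein inhibitors Id1, Id2 and Id3, which fell. In the knockouts none was higher, and 2 were lower in Per1KO (Snai1 and Bhlhe40) and 3 in Per2KO (Id1 in addition), near the 10.1% and 10.6% of all genes. Snai1, a zinc finger repressor that competes for E-boxes, was at 23.7, 41.3 and 24.4 CPM in WT and at 8.96 to 15.4 CPM in the 6 knockout libraries, with no overlap. Its differences were -1.10 ± 0.24 and -1.34 ± 0.24 (adjusted p = 0.0175 and 0.00760), and both were lost without day 3 (0.144 and 0.0892), the Per1KO call also without day 5 (0.0975). The median log2 change of the 16 was -0.26 in Per1KO and -0.30 in Per2KO.

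All 11 cofactors were tested, and 2 were lower in each knockout, Vgll2 and Mamstr, beside 10.1% and 10.6% of all genes. Vgll2, a TEAD partner found in skeletal muscle, was at 75.6, 63.6 and 32.7 CPM in WT, 33.0, 20.2 and 15.6 CPM in Per1KO and 29.3, 21 and 17.4 CPM in Per2KO. It fell with differentiation (by 1.00 ± 0.16 in log2 to day 5, edgeR adjusted p = 0.00153) and was lower in Per1KO by -1.32 ± 0.16 and in Per2KO by -1.30 ± 0.16 (adjusted p = 0.00119 and 0.00124). Mamstr encodes a coactivator of MEF2 proteins, and it was named after its values were seen, since its mean lies under the 10 CPM asked of named genes. It was at 8.46, 4.19 and 5.27 CPM in WT and between 0.628 and 1.31 CPM in the knockouts, with no overlap, and the fitted differences were -2.79 ± 0.39 and -2.67 ± 0.39 (adjusted p = 0.00239 and 0.00278). To day 5 the largest rise was in Setd7, a lysine methyltransferase (0.68 ± 0.12, adjusted p = 0.00280), which was lost without Per1KO (0.0580), and 2 cofactors rose and 2 fell in all, no larger a share than the 23.2% and 22.9% of all genes. The medians of the 11 in the knockouts were -0.06 and -0.05.

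Genes known to be switched on by the myogenic factors and MEF2 were read from a list of 23, all of them tested. By day 3 21 had risen (18.1% of all genes) and by day 5 22 (23.2%), with a median log2 change of 5.94 at day 5 and Cdh15 as the exception. The largest rise was in Myl4, an embryonic myosin light chain, with 8.95 ± 1.16 (edgeR adjusted p = 7.20e-04). Against WT 6 were lower in Per1KO (10.1% of all genes) and 8 in Per2KO (10.6%), with medians of -1.48 and -1.64, and 12 responded more in the knockouts (3.5%). Actc1, cardiac alpha-actin, which is also made in developing skeletal muscle, fell furthest. It was at 64.7, 1830.0 and 1295 CPM in WT, 1.38, 366 and 461 CPM in Per1KO and 0.550, 355 and 375 CPM in Per2KO. Its differences were -3.33 ± 0.95 and -3.61 ± 0.97 (adjusted p = 0.0473 and 0.0370), lost under the same 4 alternatives as those of Myog, with adjusted p from 0.0815 to 0.244.

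Day by day, the gap between WT and the knockouts was wide in most target genes on day 0 and narrower later. On day 0, 22 of 23 were higher in WT than in both knockouts, on day 3 21 and on day 5 16. The share of all genes in that order was not computed, so these counts have no background. Past 2-fold lower on day 0 were 17 in Per1KO and 17 in Per2KO (8.65% and 9.3% of all genes). On day 3 it was 9 and 12 (9.26% and 10%), and on day 5 4 and 4 (11.5% and 11.5%). The median log2 difference on day 0 was -2.91 in Per1KO and -3.44 in Per2KO, against -0.03 and -0.02 over all genes, and on day 5 it was -0.15 and -0.49. Unlike Myog, Cdh15, the M-cadherin gene, was 2.12-fold and 2.25-fold higher than WT on day 5 in Per1KO and Per2KO. Rapsn was 1.85-fold and 1.95-fold higher, Ckm, muscle creatine kinase, 1.58-fold and 1.2-fold, and Des 1.14-fold and 1.07-fold. All of these were named after their values were seen. Actc1, Chrng, Myh3 and Mymx were the 4 still 2-fold lower on day 5 in both. Mymx, the myomixer peptide of myoblast fusion, was at 10.0, 225 and 158 CPM in WT, 0.263, 46.4 and 43.2 CPM in Per1KO and 0.0393, 36.1 and 35.7 CPM in Per2KO.

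**Figure D4:**
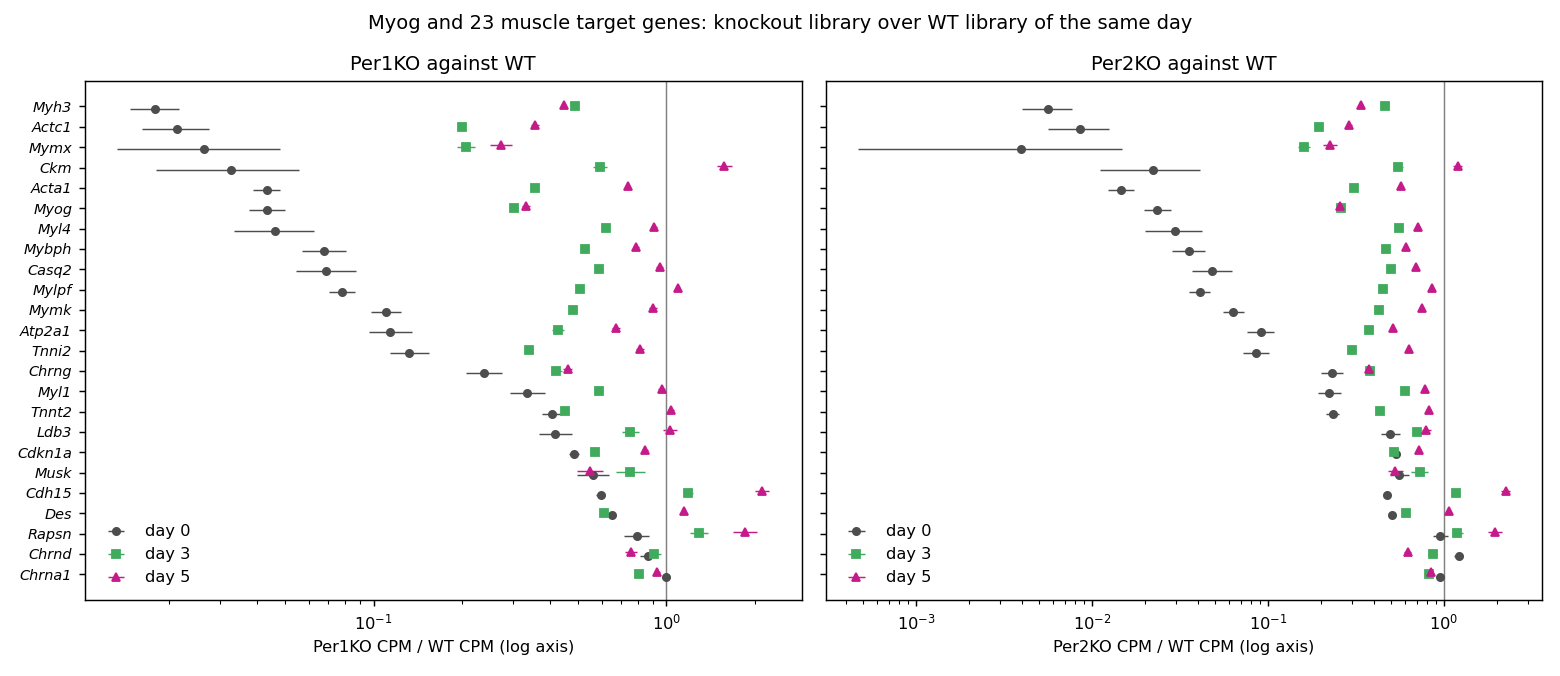
Ratio of knockout to WT CPM (log axes, different ranges) for Myog and 23 muscle target genes, Per1KO left and Per2KO right, with 1 library per genotype and day, Poisson-based 95% intervals as bars and a line at equality. Day 0 points lie left of the day 3 and day 5 points for Myog and for most targets. Myog and several targets, Actc1 and Mymx among them, stay left of the line on all 3 days.

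Genes whose profile was most like each member's were ranked by Pearson's r of log2 CPM over the 9 libraries among the 9579 tested genes that averaged 10 CPM or more. The points share libraries, genotypes and days, so r is a description. Nearest to Myog were Rbm24 (0.996), an RNA-binding splicing factor, Mymx (0.996) and Actc1 (0.995). Mef2a was followed most closely by Fbxo32 (0.996), the ubiquitin ligase atrogin-1, then Tlr6 and Tbx18, and Mef2c by Sort1 (0.998) and Ppp1r12b. The nearest to Mef2d were Carns1 (0.997), Hspb2 and Sike1. The early factors had looser neighbours. Stat5a (0.983), Bace1 and Sec24c were nearest to Myod1, and Iah1 (0.936), Klf6 and Ndrg1 to Myf5.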

How the data were processed

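The deposited file holds whole-number counts of reads per Ensembl gene for 9 libraries, made by the authors and used as deposited. Poly(A)-selected TruSeq libraries were read as single reads on an Illumina HiSeq, per the labels' protocols. CASAVA 1.8, HISAT2 2.1.0 and build mm10 (GRCm38) are named per the submitters' processing notes. The counting program, the annotation, strand use and the treatment of reads matching several genes are not given in the sources used here. Symbols, positions and lengths came from GENCODE M21 on GRCm38 by Ensembl identifier (47224 of 47729 matched), and promoter windows from RefSeq GRCm38.p6.

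A gene was tested if 3 or more of the 9 libraries reached 1 CPM (13324 genes). TMM factors (trimmed mean of M values) set the scale of CPM. In R 4.3.3, edgeR 4.0.16 with limma 3.58.1 gave the robust quasi-likelihood test, with Benjamini-Hochberg adjustment over all tested genes, called under 0.05, and every adjusted p-value is edgeR's unless DESeq2 (1.42.0) is named. Genotype and day were additive terms (4 residual degrees of freedom), and the difference in response was an interaction of knockout with days 3 and 5 against day 0 (3 residual degrees of freedom). Each SE was taken as the absolute log2 fold change divided by the square root of the quasi-likelihood F statistic. Nothing says that the libraries came from separate cultures. With 1 library per genotype and day, the spread behind the p-values is the departure of the libraries from the fitted terms. It is not a spread between replicates. In the additive fit it includes any difference in response between genotypes, such as that of Myog. Single-library 2-fold counts took genes reaching 1 CPM in one of the pair, on log2 CPM (prior count 2). The script was tested on simulated counts.

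The members, the lists of partners, inhibitors, cofactors, targets and markers, and the tests were chosen with earlier results of these data known. Named genes were the 8 members, Per1 and Per2, from each list the largest rise and fall among called genes averaging 10 CPM or more (day 5 against day 0 and each knockout against WT), the 3 genes most correlated with each member, and genes overlapping a member; 1 of these genes is not reported here. Alternatives were other size factors, filters and prior counts, DESeq2's Wald test, fits without robust estimates or with only the genotypes compared, and leaving out each genotype or day. The transcript length was varied after seeing the data.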

Additional observations from a re-analysis of the deposited data

Results flagged for a closer look

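Myog rose by a larger multiple from day 0 to days 3 and 5 in the knockouts than in WT. It did so from lower levels on day 0 (5.35 CPM in Per1KO and 2.91 in Per2KO against 124 in WT). The test of that difference in response itself passed the threshold, with 3.14 ± 0.25 in log2 (edgeR quasi-likelihood test, adjusted p = 0.00359). Both knockouts showed the direction on both days, with rises of 48.9-fold and 77.6-fold to day 3 against 7.0-fold in WT. The level reached on day 5 was nevertheless lower in both knockouts (351 and 270 CPM) than in WT (1058 CPM). WT on day 0 was a single library, and no alternative for this test left it out.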

How the results depend on the processing

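Among the 6 tested members, size factors from DESeq2, scaling on protein-coding genes, the stricter filter and fits without robust estimates left the number called the same in each comparison. Leaving out 1 genotype gave 2 to 5 called members on day 3 against day 0 (4 in the report), 3 to 6 on day 5 against day 0 (5) and 0 to 2 on day 5 against day 3 (1), the lowest without Per1KO each time and, for day 5 against day 3, also without Per2KO. Leaving out 1 day gave 0 to 1 in Per1KO against WT (1) and 0 to 2 in Per2KO against WT (2), with 0 in both without day 5. With only the 6 libraries compared, 0 members were called in Per1KO and 0 in Per2KO against WT. Testing every gene with at least 1 count lost the call of Myog in Per1KO (edgeR adjusted p = 0.193) and left 1 member called in Per2KO. It added Myf5 on day 5 against day 0 (0.0455). DESeq2's Wald test called 2 on day 5 against day 3 (Mef2d added), 6 on day 5 against day 0 (Myf5 added) and 3 in Per2KO against WT (Myod1 added). The cause was not tested. The difference in response had 1 called member, Myog, and Per1KO against Per2KO had 0, in every alternative run. No alternative for the difference in response left out day 0 or WT.

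Leaving out 1 genotype or day at a time, Myf5 on day 3 against day 0 ranged from -0.60 to 0.0075 (positive without Per2KO), Myod1 in Per1KO against Per2KO from -0.070 to 0.23 (negative without day 0), and the difference in response of Myf5 from -0.88 to 0.20 (positive without Per2KO) and of Mef2c from -0.19 to 0.25 (negative without day 3 or Per2KO). That of Mef2c was -0.0010 with protein-coding scaling, and Mef2a in Per1KO against WT on day 3 was 0.0032 with library totals. In all, 9 of 126 single-library differences changed sign with library totals, 8 of them within counting error of 0 under TMM. Library totals in place of TMM shifted the median of all genes by up to -0.20 (WT day 5 against day 0), and member values moved with it. Over all genes, the number called ranged from 1091 to 7479 on day 3 against day 0 (4664 in the report), 2259 to 8341 on day 5 against day 0 (6149), 0 to 1355 on day 5 against day 3 (238), 685 to 3396 in Per1KO (2575), 753 to 3461 in Per2KO (2652), 0 to 1 between the knockouts (0) and 240 to 1893 in the difference in response (659).

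Myf6 rests on 4 to 15 counts in the WT libraries. Genotypes were compared within days, since day was a term of the additive fit, and the labels give no replicate numbers to pair by.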

Other observations

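On day 0 the knockouts also differed from each other in repressors of the myogenic factors, in single libraries with no replicate check and with the genes named after their values were seen. Snai2, a zinc finger repressor found in myoblasts, was at 104 CPM in Per2KO, 50.2 in Per1KO and 73.5 in WT, and was thus high in the library in which Myf5 was high. Id2, an inhibitor of E proteins, went the other way, at 11.2 CPM in Per2KO, 31.1 in Per1KO and 25.8 in WT. By day 3 Snai2 was at 61.2 and 54.4 CPM and Id2 at 3.8 and 5.11 CPM in Per2KO and Per1KO. These were the 2 of 16 inhibitors past 2-fold between the knockouts on day 0, where 0.737% of all genes were higher in Per1KO and 1.62% lower.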
